A study of Rhodotorula toruloides with 36 samples.

Results

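ERG10, ERG13 and HMGR are the genes for the upper mevalonate pathway of the oleaginous yeast Rhodosporidium toruloides. They were chosen by name as the enzymes that lead to mevalonate, and are 3 of the 8490 native transcripts counted (8493 entries with the introduced sequences). RNA was sequenced from the wild type (WT, strain IFO0880) and from 4 strains derived from it that make α-bisabolene, a sesquiterpene, through an introduced α-bisabolene synthase (BIS) from Abies grandis. BIS18 carries 1 copy of BIS under the GAPDH promoter (P_GAPDH-BIS), BIS14 carries 7 and BIS3 carries 10. GB2 is BIS3 with 6 further copies under the ANT promoter (P_ANT-BIS). Each engineered strain is a single transformant with the DNA inserted at random loci, so that copy number, insertion site and clone cannot be told apart. All cultures grew in SD medium and were sampled at 18 h and 48 h. The labels give 2% glucose, while the text of the study states a lower concentration. There were 3 libraries of each engineered strain and 6 of WT per time, and nothing says that they came from separate cultures, so p-values measure only the spread between libraries.

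The mevalonate pathway makes the isoprenoid precursors of sterols, carotenoids and other terpenoids from acetyl-CoA. ERG10, acetyl-CoA acetyltransferase, joins acetyl-CoA units into acetoacetyl-CoA, and ERG13, HMG-CoA synthase, adds a further acetyl unit to form 3-hydroxy-3-methylglutaryl-CoA (HMG-CoA). HMGR, HMG-CoA reductase, reduces HMG-CoA to mevalonate and is the classically regulated step in many eukaryotes. BIS acts far downstream, on farnesyl pyrophosphate, the same intermediate that sterol synthesis draws on.

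In the deposited files ERG10 is transcript 8806, on scaffold 1 at 734336 to 736325 on the plus strand. ERG13 is transcript 12250, on scaffold 2 at 508841 to 511191 on the minus strand. HMGR is transcript 9702, on scaffold 10 at 646514 to 651293 on the plus strand. The coordinates are those of the IFO0880 reference used for counting, named without a version for the RNA reads, and the listed lengths of 1990, 2351 and 4780 bases are genomic spans. The files hold no gene names. The transcripts were linked to the genes through a number offset. It had been picked because it matched the 18 h fold changes of 17 named genes to those of the study. The differences from WT at 18 h therefore do not stand independently of that link. Nor do the 18 h steps between engineered strains and the 18 h ratios set against WT, which are built from those differences. The same holds for the comparisons of time changes with WT, which contain them. It holds as well for how time changes of levels and ratios differ between strains, and for likeness between linked genes.

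Library totals ran between 1092869 and 3102440 counts at 48 h and between 1134992 and 2029181 at 18 h in the 35 libraries used. WT replicate 2 at 48 h, with 657951 counts, was left out. It gave 36.6, 18.2 and 6.62 FPKM for ERG10, ERG13 and HMGR, each below the other 5 WT libraries of that time. BIS itself reached 807 to 21250 CPM (counts scaled to the library total) in the engineered strains and 2.01 to 6.34 CPM in WT. None of the 49 pairs of libraries within a group held identical counts, and their chi-square per degree of freedom was 1.14 to 14.6. Per library, ERG10 had 154 to 1492 counts, ERG13 161 to 2918 and HMGR 82 to 316, so that HMGR carries the largest counting error. Levels are given as FPKM, fragments scaled to the listed length and to the TMM-scaled library size, where the listed length includes any introns, so that levels, ratios and ranks set between genes are approximate. They are relative to the rest of the RNA in the library.

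At 18 h all 3 genes were higher in BIS14, BIS3 and GB2 than in WT, and none passed the test in BIS18. ERG10 had 133, 120.0 and 129 FPKM in BIS18, 216, 235 and 235 FPKM in BIS14, 286, 427 and 298 FPKM in BIS3 and 487, 441 and 503.9 FPKM in GB2, against 111 to 134 with a median of 121 in the 6 WT libraries. The libraries of GB2, BIS3, BIS14 and BIS18 did not overlap with each other, and those of BIS18 lay inside the WT range. ERG13, which acts next, spread much wider, with 70.7, 71.2 and 81.8 FPKM in BIS18, 173, 229 and 251 FPKM in BIS14, 308, 735 and 321 FPKM in BIS3 and 805, 761 and 813 FPKM in GB2, against 62.2 to 85.4 with a median of 72.6 in WT. Replicate 2 of BIS3 stood above the other BIS3 libraries for each member, and close to GB2 for ERG13. HMGR moved over the smallest range, with 14.3, 14.9 and 14.9 FPKM in BIS18, 18.6, 22.8 and 24.1 FPKM in BIS14, 25.4, 31.0 and 26.2 FPKM in BIS3 and 42.9, 37.4 and 41.4 FPKM in GB2, against 15.1 to 21.0 with a median of 16.0 in WT. The BIS14 libraries overlapped with WT for HMGR, and all BIS18 libraries lay just under the lowest WT library.

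**Figure D1:**
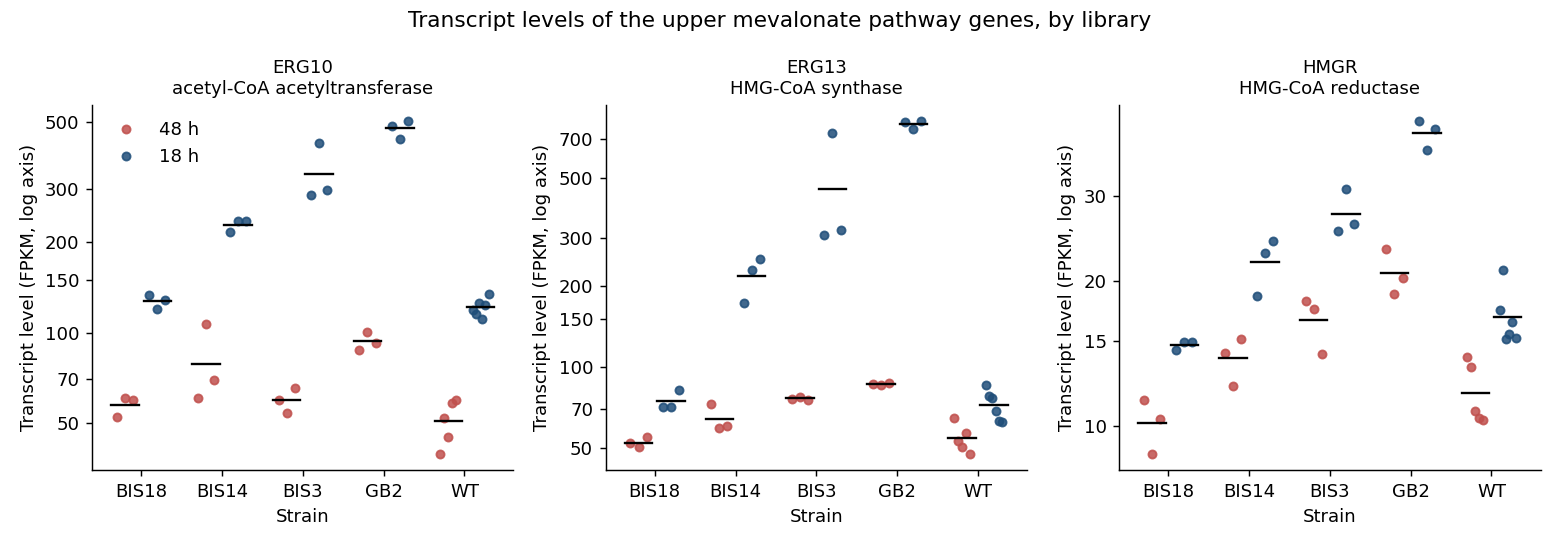
FPKM of ERG10, ERG13 and HMGR on log axes in each library of the 5 strains, at 48 h (red) and 18 h (blue), with black lines for the group means. At 18 h the points climb in steps between BIS18 and GB2, most steeply for ERG13 (mean 793 FPKM in GB2, 72.3 in WT). At 48 h the ERG13 points stay within a narrow band (86.3 in GB2, 54.6 in WT). The HMGR means are 20.8 in GB2 and 11.7 in WT at 48 h, and 40.6 and 16.8 at 18 h.

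The fitted differences at 18 h had the same order. In GB2 against WT, log2 fold changes were 1.92 for ERG10 (SE 0.11, adjusted p = 4.15e-11, quasi-likelihood test of edgeR, Benjamini-Hochberg adjusted across the table), 3.41 for ERG13 (10.6-fold, SE 0.20, adjusted p = 5.65e-11) and 1.23 for HMGR (2.34-fold, SE 0.11, adjusted p = 1.63e-08). All 3 members were called higher there, where 26.3% of the 7375 transcripts tested were. ERG13 ranked 24 among all 7375 differences, counted from the highest, ERG10 123 and HMGR 421. In BIS3 against WT all 3 were higher, beside 17.3% of all transcripts, and HMGR rose by 0.69 (SE 0.12, adjusted p = 1.92e-04). In BIS14 against WT all 3 were higher again, beside 10.5% of all transcripts. HMGR rose by 0.39 in BIS14 (adjusted p = 0.0287), a call that 9 of 30 alternative settings did not keep. In BIS18 against WT 0 of 3 members and 0.529% of all transcripts passed in either direction, no member had an unadjusted p under 0.05, and DESeq2 called 0 of 3 as well. The BIS18 estimates were 0.07 for ERG10, 0.05 for ERG13 and -0.18 for HMGR, with SEs of 0.12, 0.21 and 0.12.

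**Figure D2:**
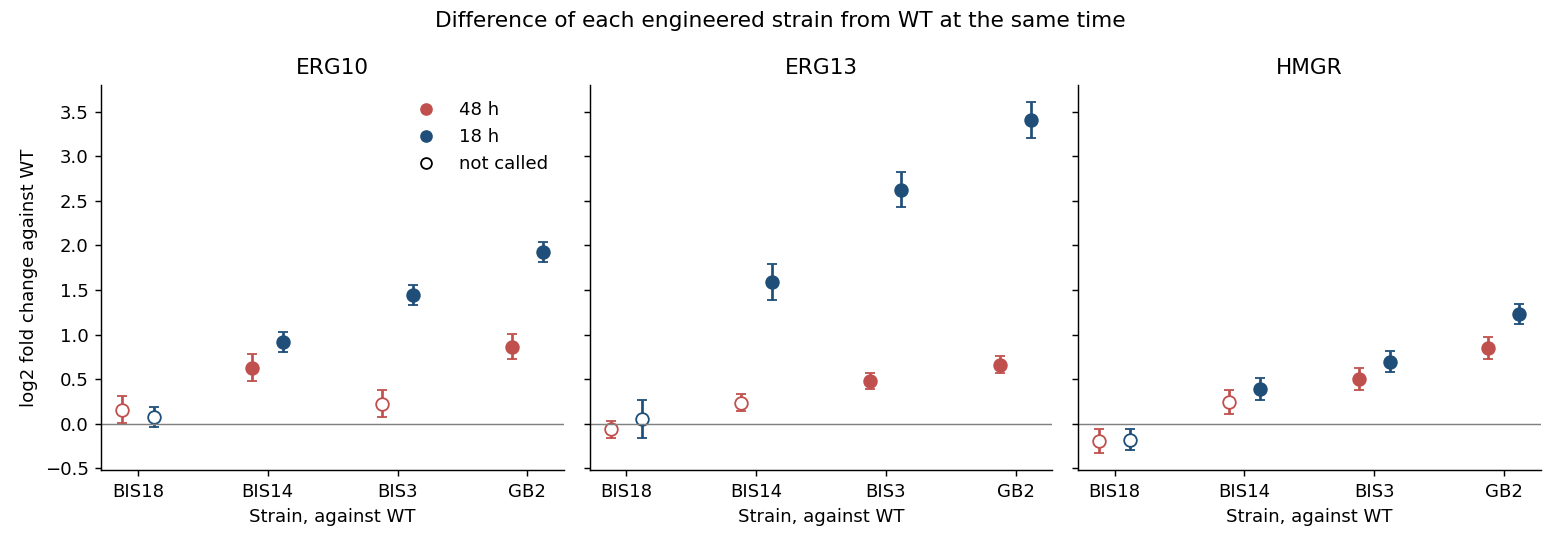
Log2 fold change of each member in BIS18, BIS14, BIS3 and GB2 against WT at 48 h and 18 h, with bars of 1 SE from the edgeR fit; open circles did not pass the test. ERG13 climbs to 3.41 in GB2 at 18 h and reaches 0.66 at 48 h, while HMGR stays at 1.23 or less.

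Between neighbouring engineered strains at 18 h, HMGR passed in 2 of the 3 steps and ERG10 and ERG13 in all 3, several of these resting on single libraries or settings. In BIS14 against BIS18 all 3 members were higher, beside 7.11% of all transcripts, and HMGR differed by 0.57 (SE 0.14, adjusted p = 0.0134), a call that 4 of 30 alternatives did not keep, among them those without BIS18 replicate 1 or 2. In BIS3 against BIS14 ERG10 and ERG13 were higher, beside 1.27% of all transcripts, by 0.53 (adjusted p = 0.0299) and 1.04 (adjusted p = 0.0182). HMGR differed by 0.30 in that step (adjusted p = 0.248). Without BIS3 replicate 2 the ERG10 and ERG13 steps were 0.33 and 0.51 and neither passed. In GB2 against its parent BIS3 all 3 members were higher, beside 14.6% of all transcripts, by 0.48, 0.78 and 0.54 for ERG10, ERG13 and HMGR (adjusted p = 0.00905, 0.0152 and 0.00415). The HMGR value was 0.11 once the median of its scaffold, described further on, was taken off. The ERG13 step to GB2 was 1.31 without BIS3 replicate 2, and without BIS3 replicate 1 or 3 it was 0.60 or 0.61 and no longer passed.

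At 48 h the strains lay much closer together for ERG10 and ERG13, and less so for HMGR. The HMGR libraries ran from 8.74 to 23.3 FPKM at 48 h and from 14.3 to 42.9 FPKM at 18 h. Of the members, 3 were called higher than WT in GB2, 2 in BIS3, 1 in BIS14 and 0 in BIS18. ERG10 had 52.3, 60.5 and 59.6 FPKM in BIS18, 60.7, 107 and 69.3 FPKM in BIS14, 59.8, 53.9 and 65.3 FPKM in BIS3 and 87.5, 100.4 and 92.3 FPKM in GB2, against 39.6, 52.0, 45.1, 58.4 and 59.6 in WT. Only the BIS14 and GB2 libraries all lay above the WT range. ERG13 had 52.0, 50.4 and 54.7 FPKM in BIS18, 72.6, 59.1 and 60.5 FPKM in BIS14, 76.2, 77.3 and 75.5 FPKM in BIS3 and 86.4, 85.6 and 86.9 in GB2, against 64.7, 53.2, 50.5, 57.0 and 47.6 in WT. Here the GB2 and BIS3 libraries were tightly grouped, apart from each other and above WT. HMGR had 11.3, 8.74 and 10.3 FPKM in BIS18, 14.1, 12.1 and 15.2 FPKM in BIS14, 18.1, 17.5 and 14.1 FPKM in BIS3 and 23.3, 18.8 and 20.3 in GB2, against 13.9, 13.2, 10.7, 10.4 and 10.3 in WT. GB2 and BIS3 again lay above all WT libraries, BIS3 by a narrow margin.

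All 3 members were higher in GB2 than in WT at 48 h, beside 22.2% of the 7913 transcripts tested, with log2 fold changes of 0.86 for ERG10, 0.66 for ERG13 and 0.85 for HMGR (adjusted p = 5.93e-05, 7.53e-06 and 1.01e-05). HMGR, which had the smallest estimate at 18 h, here had one close to that of ERG10. The other transcripts of its scaffold, described further on, had a median of 0.44 in the same comparison. ERG13 ranked 668 of 7913 at 48 h, ERG10 362 and HMGR 386. In BIS3 against WT 2 of 3 members were higher, beside 13.5% of all transcripts: ERG13 by 0.48 (adjusted p = 8.07e-04) and HMGR by 0.50 (adjusted p = 0.00592), with ERG10 at 0.22 (adjusted p = 0.301). Leaving out BIS3 replicate 1 (0.42), using only WT replicates 1 to 3 (0.27) or a replicate block (0.32) ended the HMGR call, and including WT replicate 2 ended those of ERG13 (0.62) and HMGR (0.58). In BIS14 against WT 1 of 3 members was higher, beside 19.5% of all transcripts. This was ERG10, by 0.63 (adjusted p = 0.00278), and it rested on BIS14 replicate 2, without which it was 0.32 (adjusted p = 0.0969). In BIS18 against WT 0 of 3 passed, beside 18.9% of all transcripts in either direction, with 0 of 3 at an unadjusted p under 0.05 and 0 of 3 called by DESeq2.

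Of the steps between strains at 48 h, only that of ERG10 in GB2 over BIS3 passed, beside 13.4% of all transcripts (0.64, SE 0.17, adjusted p = 0.00729), and not with WT replicate 2 included (0.65, adjusted p = 0.107). In BIS14 against BIS18 0 of 3 members passed, beside 9.79% of all transcripts in either direction, and in BIS3 against BIS14 0 of 3, beside 7.34%. The unadjusted p was under 0.05 for all 3 members in the step between BIS14 and BIS18 and for ERG10 and ERG13 in that between BIS3 and BIS14, and DESeq2 called 0 of 3 in both. In BIS3 the ERG10 estimate lay under that of BIS14, by -0.41 (adjusted p = 0.156).

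All 3 genes were lower at 48 h than at 18 h in every strain. The drop was steepest for ERG13 in GB2, and this order over strains contains the 18 h differences used to link transcripts to genes. In WT, ERG10 averaged 50.9 ± 8.59 FPKM at 48 h (SD, n = 5) and 121 ± 8.32 at 18 h (n = 6), ERG13 54.6 ± 6.59 at 48 h and 72.3 ± 9.27 at 18 h, and HMGR 11.7 ± 1.72 at 48 h and 16.8 ± 2.26 at 18 h. The libraries of the times were apart for ERG10 and HMGR and overlapped for ERG13. The WT changes were -1.25 for ERG10 (SE 0.12, adjusted p = 2.56e-11), -0.40 for ERG13 (SE 0.15, adjusted p = 0.0164) and -0.53 for HMGR (SE 0.11, adjusted p = 4.61e-05) on the log2 scale. All 3 members were called lower in WT, where 34.9% of the 7899 transcripts tested were. ERG13 in WT was not called in 4 of 46 alternatives. It was -0.47 with only WT replicates 1 to 3, of which replicates 1 and 3 were used at 48 h, and -0.31 with only replicates 4 to 6, neither passing. These sets differed for ERG13 at 18 h, with 76.9 to 85.4 FPKM in replicates 1 to 3 and 62.2 to 68.3 in replicates 4 to 6.

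The same 3 genes were lower at 48 h in BIS18 (28.5% of all transcripts were lower), BIS14 (26.9%), BIS3 (29.7%) and GB2 (32%). On the log2 scale ERG10 changed by -1.15 (BIS18), -1.53 (BIS14), -2.49 (BIS3) and -2.35 (GB2). ERG13 changed by -0.51 (BIS18), -1.76 (BIS14), -2.58 (BIS3) and -3.20 (GB2), and the last value ranked 7881 of 7899, counted from the highest. The HMGR changes stayed between -0.54 in BIS18 and -0.97 in GB2. ERG13 in BIS18 (adjusted p = 0.0301) was the only one of these 12 changes that any alternative ended, and it was lost in 5 of 46.

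**Figure D3:**
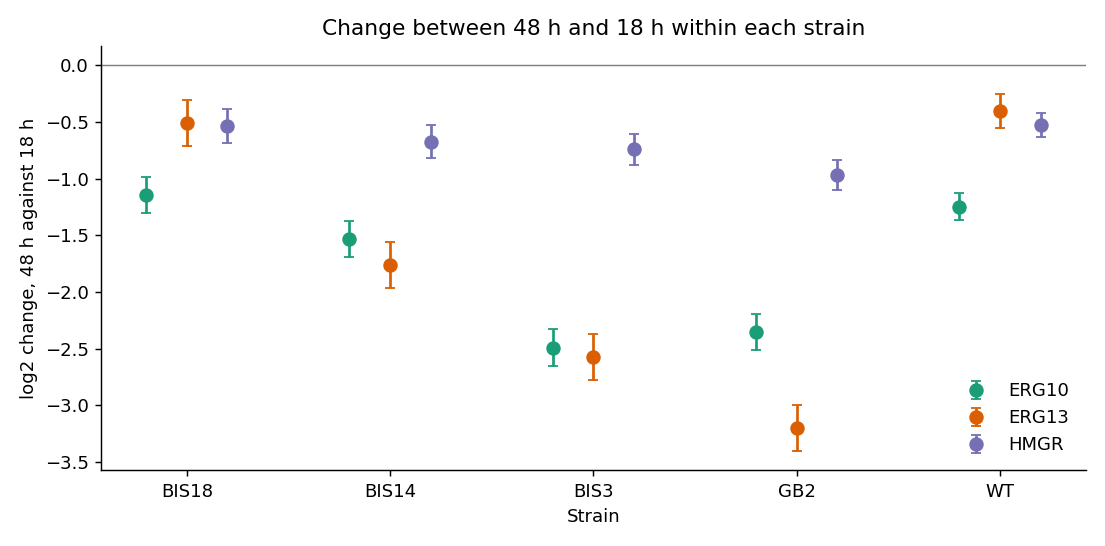
Log2 fold change of each member at 48 h over 18 h in the 5 strains, with bars of 1 SE from the edgeR fit to the 35 libraries. All values are below 0; ERG13 runs down to -3.20 in GB2 against -0.40 in WT, and HMGR keeps between -0.97 in GB2 and -0.53 in WT.

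Whether a strain's time change differed from that of WT was tested with an interaction term in the same fit. For BIS18 0 of 3 members differed, beside 3.41% of all transcripts in either direction, with 0 of 3 at an unadjusted p under 0.05 and 0 of 3 called by DESeq2. For BIS14 1 of 3 differed, beside 6.67% of all transcripts with a lower value: ERG13, by -1.36 (SE 0.25, adjusted p = 2.86e-04). For BIS3 2 of 3 differed, beside 8.66%, namely ERG10 by -1.24 (adjusted p = 3.18e-05) and ERG13 by -2.17 (adjusted p = 1.27e-07). For GB2 all 3 differed, beside 20.4%, with ERG10 at -1.11, ERG13 at -2.80 and HMGR at -0.44 (adjusted p = 2.14e-05, 6.41e-11 and 0.0361). The HMGR difference in GB2 was not called in 15 of 45 alternatives, and the other 5 were called in all of theirs. In BIS14 and BIS3 the HMGR interactions were -0.15 (SE 0.18) and -0.22 (SE 0.18).

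Ratios within a library do not depend on its depth, and they show how the balance of the genes moved. The FPKM of ERG13 over that of ERG10 at 18 h averaged 0.587 (BIS18), 0.946 (BIS14), 1.29 (BIS3) and 1.66 (GB2), against 0.600 in WT. In GB2 it was 1.61 to 1.73, and in WT 0.464 to 0.720, so that ERG13 had the higher FPKM in every GB2 library and the lower in every WT library. HMGR over ERG13 ran the other way, at 0.198 (BIS18), 0.101 (BIS14), 0.0686 (BIS3) and 0.0511 (GB2), against 0.234 in WT. HMGR over ERG10 was 0.116 (BIS18), 0.0953 (BIS14), 0.0830 (BIS3) and 0.0850 (GB2), against 0.139 in WT. The BIS14, BIS3 and GB2 ranges of each ratio were apart from that of WT. The exact two-sided permutation p was 0.0238 for each of these 9 comparisons, the smallest that 3 against 6 libraries allow. After adjustment over the 27 ratio tests none passed (adjusted p = 0.0584 at the lowest).

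At 48 h the ratios no longer separated any strain from WT. HMGR over ERG13 lay between 0.173 and 0.269 in all 17 libraries, with means of 0.193 (BIS18), 0.217 (BIS14), 0.217 (BIS3) and 0.241 (GB2), against 0.215 in WT. WT at 18 h had 0.197 to 0.270. ERG13 over ERG10 averaged 0.916 (BIS18), 0.874 (BIS14), 1.29 (BIS3) and 0.927 (GB2), against 1.11 in WT, and HMGR over ERG10 averaged 0.178 (BIS18), 0.188 (BIS14), 0.281 (BIS3) and 0.224 (GB2), against 0.239 in WT. Exact permutation p-values were 0.214 to 0.893 and all ranges overlapped. In WT itself, ERG13 over ERG10 was 1.82 times as high at 48 h as at 18 h, with no overlap (0.799 to 1.63 at 48 h, 0.464 to 0.720 at 18 h; exact permutation p = 0.00433, the smallest possible; adjusted p = 0.0584). Taken as 5 pairs of WT libraries with the same replicate number, it was higher at 48 h in 5 of 5, by 0.90 on the log2 scale (exact sign-flip permutation p = 0.0625, the smallest that 5 pairs allow). In GB2 the same ratio was 0.556 times that at 18 h. HMGR over ERG10 was 1.67 times as high at 48 h as at 18 h in WT, with overlap (exact permutation p = 0.0130, adjusted p = 0.0584). In the engineered strains it was 1.52 (BIS18), 1.89 (BIS14), 3.35 (BIS3) and 2.61 (GB2) times as high, each without overlap. HMGR over ERG13 was 4.69 times as high at 48 h as at 18 h in GB2, 3.28 in BIS3 and 2.13 in BIS14, each without overlap, and 0.974 in BIS18 and 0.921 in WT, with overlap.

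**Figure D4:**
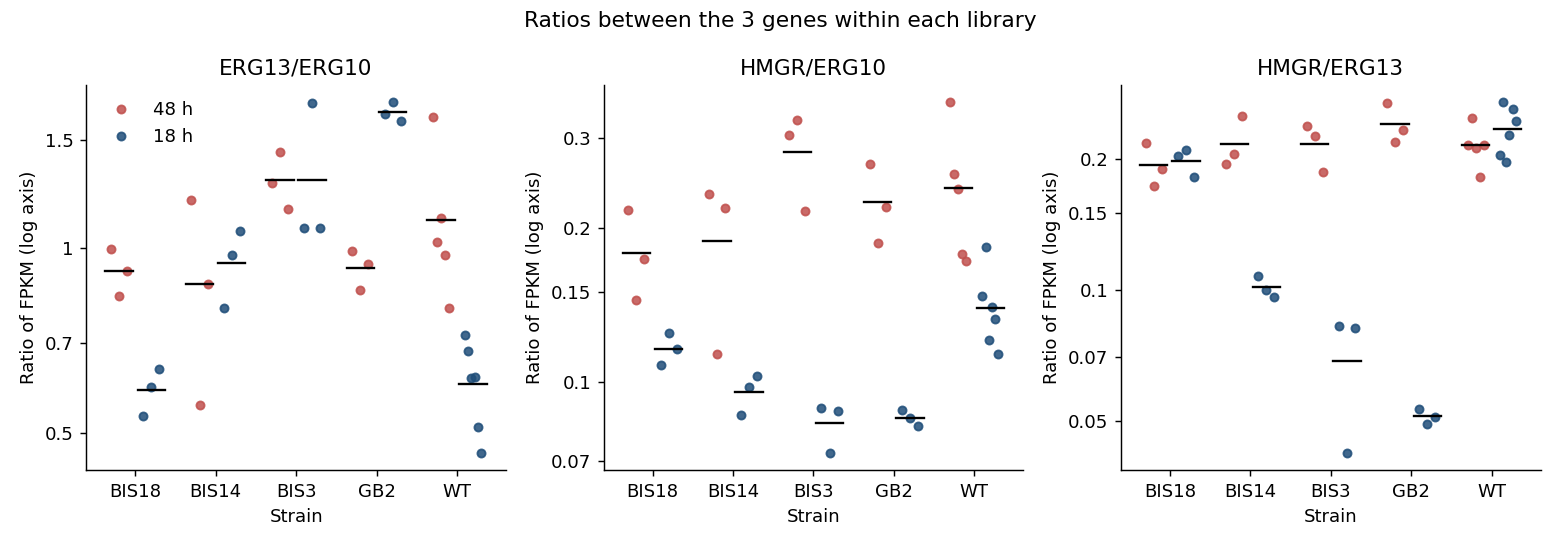
Ratios of FPKM between the 3 genes on log axes in each library at 48 h (red) and 18 h (blue), with black lines for the group means. At 18 h ERG13 over ERG10 climbs to 1.66 in GB2 against 0.600 in WT, HMGR over ERG13 falls to 0.0511 against 0.234, and at 48 h the strains and WT overlap.

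In rank among all native transcripts of a library, ordered by FPKM from the highest, ERG13 averaged 147 in GB2 and 1722 in WT at 18 h. ERG10 averaged 244 in GB2 and 945 in WT, and HMGR 3152 in GB2 and 5602 in WT. At 48 h the GB2 and WT ranks were 1361 and 2228 for ERG13, 1242 and 2472 for ERG10, and 5184 and 6569 for HMGR. HMGR ranked below both other genes in these groups, and by CPM, without the length, its ranks at 18 h were 1354 in GB2 and 3240 in WT. Of the 30 mean ranks 20 moved by more than their SD in that way, most of all for HMGR, which has the greatest listed length. Over the 10 groups of strain and time, each gene was highest in GB2 at 18 h, then in BIS3 and BIS14 at 18 h, with no overlap among these. For HMGR the lowest BIS3 library (25.4 FPKM) lay only just above the highest BIS14 library (24.1 FPKM). The share of all transcripts with this order and separation was not counted. Below BIS14 at 18 h most neighbours in that order overlapped. For ERG10 all 18 h groups stood above all 48 h groups, whereas ERG13 in GB2 and BIS3 at 48 h lay above BIS18 and WT at 18 h in the mean.

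HMGR lies on a scaffold whose transcripts were raised together in GB2. The other transcripts of scaffold 10 had a median log2 difference of 0.44 in GB2 against WT at 48 h (364 transcripts, 64.3% called higher) and 0.34 at 18 h (334 transcripts, 49.7% called higher). Against its parent BIS3 the medians were 0.49 at 48 h and 0.43 at 18 h. In BIS18, BIS14 and BIS3 against WT the scaffold median was -0.07 to 0.02. The medians of scaffolds 1 and 2, which hold ERG10 and ERG13, were -0.07 to 0.01 in all comparisons with WT. HMGR was above its scaffold's median by 0.41 at 48 h and 0.89 at 18 h in GB2 against WT. In GB2 against BIS3 it was at -0.14 from that median at 48 h and 0.11 at 18 h, and 140 of the 334 other transcripts at 18 h had a higher value than HMGR. Among the 10 transcripts on either side of HMGR, the 16 tested at 48 h had a median of 0.86 in GB2 against WT, beside 0.85 for HMGR itself, and the 14 tested at 18 h a median of 0.36. Against WT at 48 h these neighbours also had medians of 0.27 in BIS18, 0.40 in BIS14 and 0.09 in BIS3. At 18 h they had -0.08 in BIS18, 0.06 in BIS14 and 0.08 in BIS3. The neighbours of ERG10 and ERG13 taken the same way had medians of -0.18 to 0.01 in GB2 against WT. What part the shift of the scaffold has in the HMGR differences of GB2 from BIS3 and from WT, or in the GB2 ratios with HMGR, was not tested. In BIS3 and BIS14 against WT at 18 h, HMGR stood 0.77 and 0.42 above its scaffold's median.

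**Figure D5:**
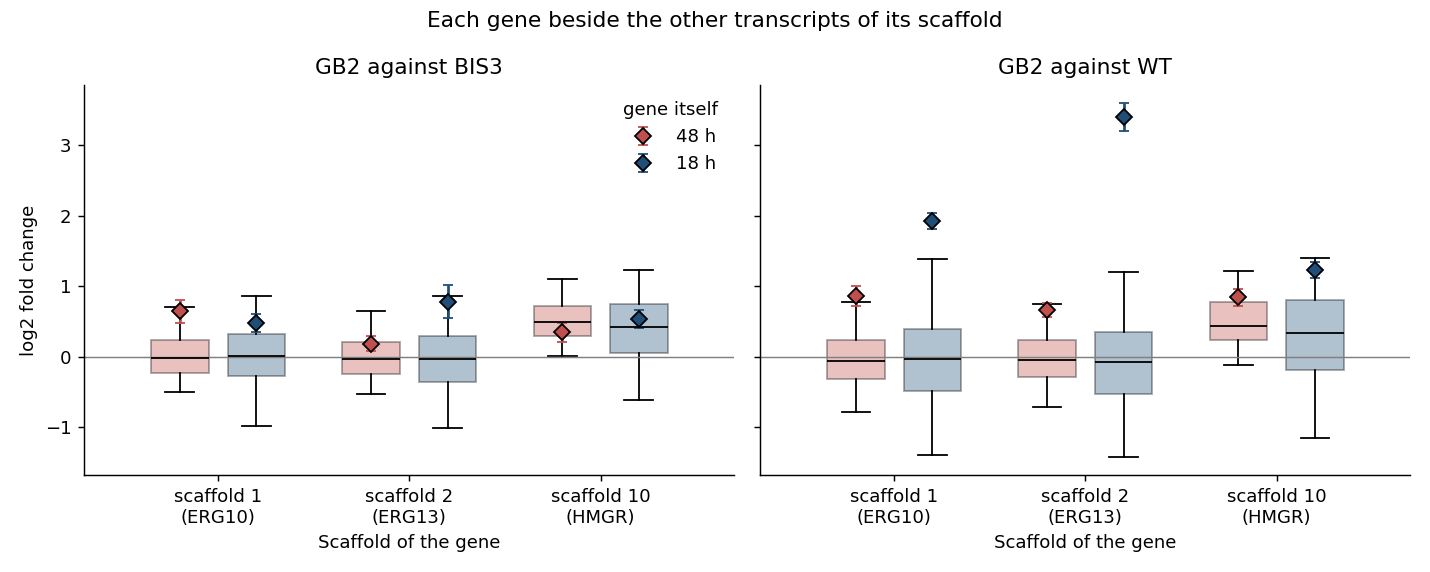
Log2 fold changes of GB2 against BIS3 (left) and against WT (right) at 48 h (red) and 18 h (blue), for each gene (diamonds, bars of 1 SE) and for the other transcripts of its scaffold (boxes with median and quartiles, whiskers from the 5th to the 95th percentile). The scaffold 10 boxes sit above 0, with medians of 0.34 to 0.49, and the HMGR diamonds for GB2 against BIS3 fall inside them.

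The transcripts next to the members give a further view of how local the differences were. Whether counting used strand is not given in the sources used here, so reads of a gene and an overlapping or adjoining neighbour cannot be told apart with certainty. Transcript 8805, which ends 129 bases before ERG10 on the same strand, was also higher in GB2 (1.04, adjusted p = 4.61e-04) and BIS3 (0.60, adjusted p = 0.0484) against WT at 18 h, and in GB2 (0.68, adjusted p = 2.16e-04) and BIS14 (0.46, adjusted p = 0.0124) at 48 h. Transcript 8807 on the other side, 1195 bases away, was at 0.01 in GB2 at 18 h (adjusted p = 0.976) and 0.02 at 48 h. Both neighbours were lower at 48 h than at 18 h in WT, 8805 by -1.36 and 8807 by -1.55. Transcript 12249, 120 bases from ERG13, was higher in GB2 (0.35, adjusted p = 0.00668) and lower in BIS14 (-0.40, adjusted p = 0.0150) than in WT at 18 h, and its time change in GB2 differed from that in WT by -0.44 (adjusted p = 0.0111). Transcript 12251, which adjoins ERG13, was at 0.12 in GB2 at 18 h. Transcript 9701 adjoins HMGR on the other strand and averaged only 17.1 counts. At 48 h it was higher than in WT in GB2 (1.06, adjusted p = 9.47e-05), BIS14 (0.58, adjusted p = 0.0397) and BIS3 (0.56, adjusted p = 0.0470). Unlike HMGR, it was higher at 48 h than at 18 h in WT (1.64).

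The likeness of patterns was measured as Pearson's r of mean log2 CPM over the 10 groups against each of 7898 other transcripts, as a description. ERG10 and ERG13 had r = 0.945, ERG13 and HMGR 0.939 and ERG10 and HMGR 0.905. Other transcripts were closer to each: 9022 on scaffold 1 to ERG10 (r = 0.996), 13188 on scaffold 3 to ERG13 (r = 0.990) and 9779, on scaffold 10 like HMGR, to HMGR (r = 0.968). ERG13 was at rank 289 in the list of ERG10 and at rank 24 in that of HMGR. ERG20, farnesyl pyrophosphate synthase, was at rank 15 in the list of ERG13, and ERG7, lanosterol synthase, at rank 38. The points share libraries and a common drop with time. They include the 18 h groups, whose differences from WT served to link transcripts to genes. The r values and ranks between linked genes therefore do not stand independently of that link.

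The 14 other genes of acetyl-CoA, fatty acid, isoprenoid and sterol synthesis that the same link names were taken as a list the study had chosen on these samples, so that their direction is not independent evidence. In GB2 against WT at 18 h 12 of 14 were higher and 1 lower, beside 54.3% of all transcripts called in either direction, with a median of 1.06 beside -0.05 over all transcripts. ERG7 (2.38) and ERG20 (2.20) were above ERG10 and HMGR, and none of the 14 reached the 3.41 of ERG13. Mevalonate kinase (MK), which acts directly after HMGR, was lower (-0.82, adjusted p = 4.60e-04), and phosphomevalonate kinase (PMK), the enzyme after it, was at 0.10 (adjusted p = 0.534). At 48 h 8 of 14 were higher and 0 lower in GB2, with MK at -0.03. Of all transcripts 22.2% were called higher there and 42.7% in either direction. In BIS14 at 48 h 8 were higher and 3 lower, beside 35.7%. The 3 lower were PMK (-0.32), MVD, mevalonate diphosphate decarboxylase (-0.66), and ERG9, squalene synthase (-0.39).

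In WT 9 of the 14 were lower and 2 higher at 48 h than at 18 h, beside 72% of all transcripts in either direction, with a median of -1.0 on the log2 scale. ERG20 (-1.04) and ERG7 (-0.97) were lower, near ERG10, while ERG9 (-0.01) and squalene epoxidase ERG1 (-0.10) did not pass and ERG11, lanosterol demethylase, was higher (0.55). The later enzymes of the mevalonate pathway were at -1.25 (MK), -1.21 (PMK), -0.61 (MVD) and -0.07 (IDI, isopentenyl diphosphate isomerase, which did not pass). In the comparison of the GB2 time change with that of WT, 10 of the 14 had a lower and 1 a higher value, beside 40% of all transcripts in either direction. The 1 higher was MK (0.73, adjusted p = 0.00549), where ERG10, ERG13 and HMGR were all lower.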

How the data were processed

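The members and lists were chosen with earlier results of these data known. RNA-seq counts of 36 libraries (R. toruloides WT and 4 engineered strains) were analysed as deposited. Per the labels and methods, the authors aligned reads from TruSeq libraries with HISAT2 to the IFO0880 reference and counted reads per transcript with featureCounts, unnormalised. Settings for strand and shared reads are not given in the sources used here. WT replicate 2 at 48 h was left out.

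Counts were fitted per time with edgeR 4.0.16 in R 4.3.3 (TMM, filterByExpr, quasi-likelihood test, Benjamini-Hochberg over all transcripts, threshold 0.05), with 7375 transcripts tested at 18 h and 7913 at 48 h. Time changes and interactions came from 1 fit to the 35 libraries (7899 transcripts). Ratios were compared by exact two-sided permutation tests with Benjamini-Hochberg adjustment over 27 tests (SciPy 1.17.1). The 3 members were named by the choice of pathway, and the nearest transcript to each by Pearson's r. Tested on simulated data, edgeR recovered 94% of 200 transcripts changed 2-fold for GB2 against WT at 18 h, with 10 false calls (7269 transcripts). At 48 h it recovered 97.5%, with 12 false calls (7864 transcripts), and for the GB2 interaction 85.5%, with 8 (7520 transcripts). The changed transcripts were drawn from the better expressed ones, up and down in equal number. In the real data 54.3% of transcripts were called in GB2 against WT at 18 h, so these rates need not hold there. Alternatives covered normalisation, filter, DESeq2 1.42.0, the WT libraries used, samples in the fit, a replicate block and leaving out each library.

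The main tests used no pairing. Replicate numbers were taken as pairing WT libraries across times only in added checks. There the deviations of same-numbered libraries correlated over 0.1 in 5 of 5 pairs (r of 0.15 to 0.28), a sign from the data that no label states. Correlations between libraries with different numbers were not computed, so this sign does not show pairing. Replicate numbers were not taken as pairing other samples (1 of 12 pairs across times in the engineered strains, 10 of 56 across strains). Figures were drawn with matplotlib 3.10.9.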

Additional observations from a re-analysis of the deposited data

Results flagged for a closer look

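In 6 cases the change between 48 h and 18 h in an engineered strain differed from that in WT by the interaction term of the edgeR fit. For ERG13 the difference was -1.36 in BIS14, -2.17 in BIS3 and -2.80 in GB2 on the log2 scale, each meaning a steeper drop in the strain. These values, and those of ERG10 and HMGR that follow, contain the 18 h differences through which transcripts were linked to genes. None of them stands independently of that link. For ERG10 it was -1.24 in BIS3 and -1.11 in GB2. For HMGR it was -0.44 in GB2, the weakest of the 6 by its adjusted p (0.0361). Dixon's test was run for WT only, on 3 genes and 3 ratios at both times, and no WT library stood apart in these 12 cases; the test flags about 1 in 20 groups by chance. The engineered groups of 3 libraries were not tested.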

How the results depend on the processing

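Of 2469 recomputed fold changes of the members, 2375 kept direction and call, 58 lost the call, 16 gained it and 20 changed sign, all of the last with values that were not called. No called difference changed sign. The values in this paragraph are log2 differences, and the cause of each change was not tested. With library totals in place of TMM the median of all transcripts shifted by up to -0.37 (GB2 against WT, 18 h, where 1051 were higher and 3561 lower, against 1943 and 2063 under TMM) and 0.46 (BIS3, 48 h against 18 h); the 3 members kept their call in GB2 and BIS3 against WT. That setting ended HMGR in BIS14 against WT (0.28) and BIS18 (0.43), ERG10 in BIS3 against BIS14 (0.39) at 18 h, the ERG13 time change in WT (-0.19) and the HMGR interaction in GB2 (-0.29), called ERG13 in BIS3 against BIS14 at 48 h (0.38), and turned the ERG10 interaction in BIS18 (-0.079).

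With WT replicate 2 at 48 h included, ERG13 (0.62) and HMGR (0.58) in BIS3 against WT, ERG10 in GB2 against BIS3 (0.65), the ERG13 time change in BIS18 (-0.51) and the HMGR interaction in GB2 (-0.37) were lost, and signs turned for ERG13 in BIS18 at 48 h (0.080), the BIS18 interactions of ERG13 (0.034) and HMGR (0.060) and the log2 ratios HMGR/ERG10 in GB2 (0.0022) and HMGR/ERG13 in BIS14 (-0.12), BIS3 (-0.12) and WT over time (0.0090). With only WT replicates 1 to 3, HMGR was lost in BIS14 at 18 h (0.29), in BIS3 at 48 h (0.27) and in the GB2 interaction (-0.49), as was ERG13 in WT over time (-0.47); HMGR was gained at 48 h in BIS14 against BIS18 (0.44) and GB2 against BIS3 (0.35); signs turned for ERG13 in BIS18 at 18 h (-0.10), for the ratios at 48 h of ERG13/ERG10 (-0.011) and HMGR/ERG10 (-0.11) in BIS3 and HMGR/ERG13 in BIS14 (-0.10) and BIS3 (-0.10), and for HMGR/ERG13 in WT over time (0.063). With only WT replicates 4 to 6, ERG10 in BIS3 against BIS14 at 18 h (0.53), ERG13 in WT over time (-0.31) and the HMGR interaction in GB2 (-0.34) were lost; at 48 h ERG13 (0.31) and HMGR (0.39) in BIS14 against WT, ERG13 (0.30) and HMGR (0.44) in BIS14 against BIS18 and HMGR in GB2 against BIS3 (0.35) were gained; signs turned for ERG13 in BIS18 at 48 h (0.011), the HMGR interaction in BIS18 (0.044) and the ratios ERG13/ERG10 in BIS18 at 18 h (0.15) and HMGR/ERG10 in GB2 at 48 h (0.19). With 3 WT libraries the smallest exact permutation p is above 0.05, so those ratio tests say nothing of stability.

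A block for the WT pairs across times, chosen after seeing the data, changed no call of the WT time changes (-1.27 for ERG10, -0.38 for ERG13, -0.46 for HMGR) or the interactions. The numbers were not taken as pairing the other samples. A replicate block over all strains lost HMGR in BIS14 at 18 h (0.29) and in BIS3 at 48 h (0.32). In BIS3 against BIS14 at 18 h it also lost ERG10 (0.53) and ERG13 (1.00). The block gained ERG10 (0.46) and HMGR (0.44) in BIS14 against BIS18 and HMGR in GB2 against BIS3 (0.35) at 48 h, turned ERG13 in BIS18 at 18 h (-0.11), and changed no other call of the members. With only the compared groups in the fit, at 18 h HMGR in BIS14 against WT (0.39) and BIS18 (0.57), ERG10 (0.52) and ERG13 (1.01) in BIS3 against BIS14 and ERG13 in GB2 against BIS3 (0.78) were lost, and HMGR in GB2 against BIS3 at 48 h (0.35) was gained. At least 10 counts in every library ended the ERG13 time change in WT (-0.29) and BIS18 (-0.41) and the HMGR interaction in GB2 (-0.38), and leaving out BIS, Nat and Hyg ended the last too (-0.39). The HMGR interaction in BIS18 turned under RLE (0.011) and DESeq2 (0.013). The scaffold median, an alternative chosen after seeing the data, changed HMGR in GB2 against WT to 0.41 at 48 h and 0.89 at 18 h, against BIS3 to -0.14 at 48 h and 0.11 at 18 h, and over time in GB2 to -1.12.

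Leaving out single libraries at 18 h gave 0.30 to 0.50 for HMGR in BIS14 against WT (lost without WT 3, 4 or 6 or BIS14 2 or 3), -0.022 to 0.11 for ERG13 in BIS18, 0.48 to 0.68 for HMGR in BIS14 against BIS18 (lost without BIS18 1 or 2), 0.33 to 0.61 for ERG10 and 0.51 to 1.22 for ERG13 in BIS3 against BIS14 (both lost without BIS3 2 or BIS14 2, and ERG10 without BIS14 3), and 0.60 to 1.31 for ERG13 in GB2 against BIS3. At 48 h it gave 0.42 to 0.62 for HMGR in BIS3, 0.32 to 0.79 for ERG10 and 0.12 to 0.30 for ERG13 in BIS14, -0.11 to 0.0015 for ERG13 in BIS18, 0.17 to 0.64 for ERG10 in BIS14 against BIS18 and -0.58 to -0.10 for ERG10 in BIS3 against BIS14. It gave -0.54 to -0.43 for the ERG13 time change in BIS18, and interactions of -0.086 to 0.083 for HMGR in BIS18, -0.57 to -0.12 for ERG10 in BIS14 and -0.53 to -0.35 for HMGR in GB2. The log2 ratios ran over -0.091 to 0.050 for ERG13/ERG10 in BIS18 at 18 h, and at 48 h over -0.19 to 0.096 for HMGR/ERG10 in GB2, -0.098 to 0.084 for HMGR/ERG13 in BIS14 and -0.058 to 0.12 in BIS3. Counts of called transcripts moved by over 1.5 times in 59 of 823 cases, such as BIS14 against WT at 48 h (1058 with WT replicate 2 included, 2827 without), BIS18 against WT at 48 h (237 with it, 1497 without) and BIS3 against BIS14 at 18 h (0 with only those groups in the fit, 213 otherwise). HMGR, with 82 to 316 counts, is the member that depth limits most.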
